A study of Mus musculus with 12 samples.

Results

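The genes described here encode the enzymes that build mucin-type glycans, together with the relatives that their symbols group with them. They were chosen by symbol alone and read from 1 probe set per gene. Every gene was taken whose annotated symbol begins with Fut and a digit, or with Galnt and a digit or the letter l. So was every gene whose symbol begins with B3gnt, B3galt, B4galt, B4galnt, St3gal, St6gal, St8sia, Gcnt or C1galt1. This gave 71 of the 17097 genes measured. RNA of untreated primary cells from the mouse small intestine was measured on 12 arrays, with 2000 cells per sample and 22 cycles of amplification. The cells had been isolated as 6 populations, which combine a Mex3a level (high, low or negative) with an Lgr5 level (high or low). The biological replicates MR793 and MR820 each gave 1 array of every population, so n = 2 throughout. The strain, the age of the mice, any reporter allele and the way the cells were isolated are not stated in the labels, nor is whether a replicate is 1 animal or a pool. Values are log2 expression values from RMA, a normalisation that summarises the probes of a probe set, and a difference of 1 on this scale is a doubling.

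Mucin-type O-glycans begin when a GalNAc transferase puts a GalNAc sugar on a serine or threonine of a mucin. Core enzymes then add galactose or GlcNAc to that first sugar, extension enzymes lengthen the chain, and fucosyltransferases and sialyltransferases cap its ends. In the intestine these chains cover the mucus gel and the cell surface, and the fucose added by FUT2, the enzyme behind the secretor blood group trait, is a food source and attachment site for gut bacteria. Symbols do not separate pathways cleanly. B4galt7 and B3galt6 serve the proteoglycan linker, B4galt5 and B4galt6 make lactosylceramide, St3gal5 and B4galnt1 make gangliosides, Fut8 adds fucose to the core of N-glycans, and the St8sia enzymes extend sialic acid chains.

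By role the 71 genes were 16 initiating Galnt genes, 7 core and branching genes, 17 extension genes, 3 B4galnt genes, 9 fucosylation genes (among them the pseudogene Fut4-ps1), 6 alpha-3, 8 alpha-6 and 5 alpha-8 sialyltransferases. RMA gives a value to a probe set even where it has no signal, which compresses differences between dim genes, and apart from a division into brighter and dimmer probe sets the levels of different genes are not compared here. Of 82 mouse symbols that fit the name rule in the RefSeq gene table, 71 were measured. B3gntl1, St8sia3 and St8sia3os lay only on probe sets shared with another symbol, and B3gnt2, B3gnt9, B4galnt3, Galnt16, Galnt17, Galnt5, Galnt6os and Gcnt4 were not analysed here.

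The Lgr5 transcript lay between 9.00 and 10.21 on the 6 Lgr5-high arrays and between 6.37 and 8.05 on the 6 Lgr5-low arrays, so the Lgr5 gates did not overlap. The Mex3a transcript did not separate the Mex3a gates: it lay between 5.44 and 6.35 on all 12 arrays, and the Mex3a-high and Mex3a-negative arrays overlapped in both Lgr5 gates. A single array stood apart. Mex3a-high Lgr5-high cells of MR793 gave an array that correlated with the other arrays at 0.892 to 0.914 over genes, against 0.966 to 0.996 among the other 11. Each result is therefore given for all 12 arrays and for the 11 arrays without it. Among the 71 genes, 37 had a mean over the other 11 arrays above the median of all genes. Of these, 23 were lower on the array that stood apart than on the MR820 array of its population, with a median difference of -0.44. Of the 34 others, 30 were higher, with a median of 0.51. The median gap between replicates over the 71 genes was 0.531 in that population and 0.0930 to 0.140 in the other 5. Comparisons of the Mex3a-high Lgr5-high population therefore rest on its MR820 array once the other is left out. Whether the replicates are separate animals is not stated, so p-values measure the spread between these arrays.

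**Figure D1:**
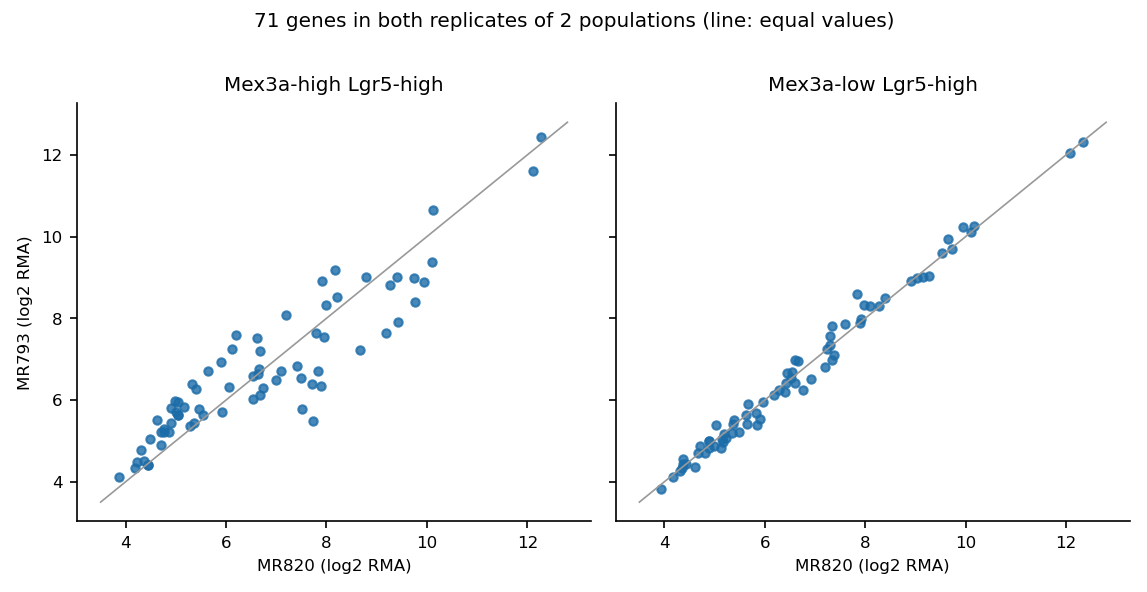
The 71 genes in the MR793 array (vertical axis, log2 RMA) against the MR820 array (horizontal axis, log2 RMA) of the Mex3a-high Lgr5-high population (left) and of the Mex3a-low Lgr5-high population (right), 1 point per gene, with a line of equal values. In the left panel dim genes lie above the line and many brighter ones below it, with a median gap of 0.531, and in the right panel the points follow the line, with a median gap of 0.124.

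Most of the 71 genes had much the same level in every population. Over 11 arrays, the range between the highest and the lowest population mean had a median of 0.314 over the 71 genes and 0.282 over all genes, and 52 of the 71 ranged by under 0.5. The range was over 1 for 5 genes, which is 7.04% of the 71, against 4.78% of all genes. These were Fut2 (5.20), St3gal4 (2.51), Gcnt3 (2.22), B4galt5 (1.57) and B4galt4 (1.08). Fut2, the widest of the 71, encodes the alpha-1,2-fucosyltransferase that makes the H antigen on epithelial glycans.

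Fut2 was highest in Mex3a-high Lgr5-low cells and intermediate in Mex3a-low Lgr5-low cells. Its probe set read 10.69 (MR793) and 10.34 (MR820) in Mex3a-high Lgr5-low cells, 8.59 and 8.11 in Mex3a-low Lgr5-low cells, and 5.25 and 5.96 in Mex3a-negative Lgr5-low cells. In the Lgr5-high gate it read 6.76 and 6.66 in Mex3a-high, 5.38 and 5.85 in Mex3a-low and 5.22 and 5.41 in Mex3a-negative cells. The 3 Lgr5-low populations did not overlap, and the Mex3a-high Lgr5-low arrays were the highest of the 12, while the Mex3a-low Lgr5-high, Mex3a-negative Lgr5-high and Mex3a-negative Lgr5-low arrays overlapped at the bottom.

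Within Lgr5-low cells, Fut2 was 4.91 ± 0.29 (SE) above its Mex3a-negative level in Mex3a-high cells, a 30.0-fold difference (limma, adjusted p = 3.25e-05 with 12 arrays and 1.17e-05 with 11). It passed the test in 21 of 21 alternatives, at 4.55 to 5.26. In that comparison 1.71% of all genes rose with 12 arrays and 4.06% with 11. Of the 71 genes 2 rose with 12 arrays, Fut2 and B4galt5, and 6 with 11 arrays, while none fell in either, where 2 and 211 of all genes did. Between Mex3a-high and Mex3a-low cells, Fut2 rose by 2.16 (adjusted p = 0.00805 with 12 arrays, 0.00285 with 11), and 2 of the 71 rose with 12 arrays and 5 with 11, against 0.889% and 2.37% of all genes. This call was lost without the Mex3a-high Lgr5-low array of MR793 (adjusted p = 0.106) and without the MR820 array of Mex3a-low Lgr5-low cells (adjusted p = 0.120).

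Between Mex3a-low and Mex3a-negative cells of the Lgr5-low gate, Fut2 was the only one of the 71 genes that rose, by 2.75 (adjusted p = 0.0172 with 12 arrays, 0.00533 with 11). Few genes passed there: 0.0468% of all genes with 12 arrays and 0.0936% with 11. The call was fragile. Leaving out single arrays in turn ended it for 8 of the 12, at adjusted p values of 0.0524 to 0.245. The call was kept without either Mex3a-high Lgr5-high array, the Mex3a-low Lgr5-low array of MR820 or the Mex3a-negative Lgr5-low array of MR820. The next smallest p values in this comparison belonged to Galntl6 (difference 0.36), Galnt12 (0.68) and St3gal1 (0.42), none of which passed with 12 or 11 arrays.

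The labels also give an array strip, with 4 arrays on each of 3 strips. Strips were not balanced over the populations. The MR793 arrays of the 3 Lgr5-low populations shared a strip, and there Fut2 exceeded its Mex3a-negative level by 5.44 in Mex3a-high and by 3.34 in Mex3a-low cells. On the strip that held MR820 arrays of both populations, Mex3a-high Lgr5-low cells were 2.22 above Mex3a-low Lgr5-low cells. These pairs of arrays also enter the differences given above, and the part of the strip in them was not tested.

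The Fut2 difference was tested against the one in the other gate. In Lgr5-high cells Fut2 differed by 1.40 between the Mex3a-high and Mex3a-negative populations (1.54 in MR793 and 1.25 in MR820), which did not pass (adjusted p = 0.505 with 12 arrays and 1.00 with 11). The difference between the gates was 3.51 ± 0.41 (SE; adjusted p = 0.00815 with 12 arrays and 0.00470 with 11). It lost its call without the Mex3a-negative Lgr5-high array of MR820 (adjusted p = 0.0700). Fut2 was the only one of the 71 genes that passed this test of the difference in the fits of 12 and of 11 arrays without a block, where 0.398% and 0.936% of all genes passed in the same direction. B4galt5 followed with 1.26 (adjusted p = 0.241; 1.04 and 0.104 with 11 arrays), and it passed with 11 arrays and the replicate as a block (0.98, adjusted p = 0.0297). Next came B4galt4 with 0.98 and B4galt6 with 0.96, which did not pass.

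**Figure D2:**
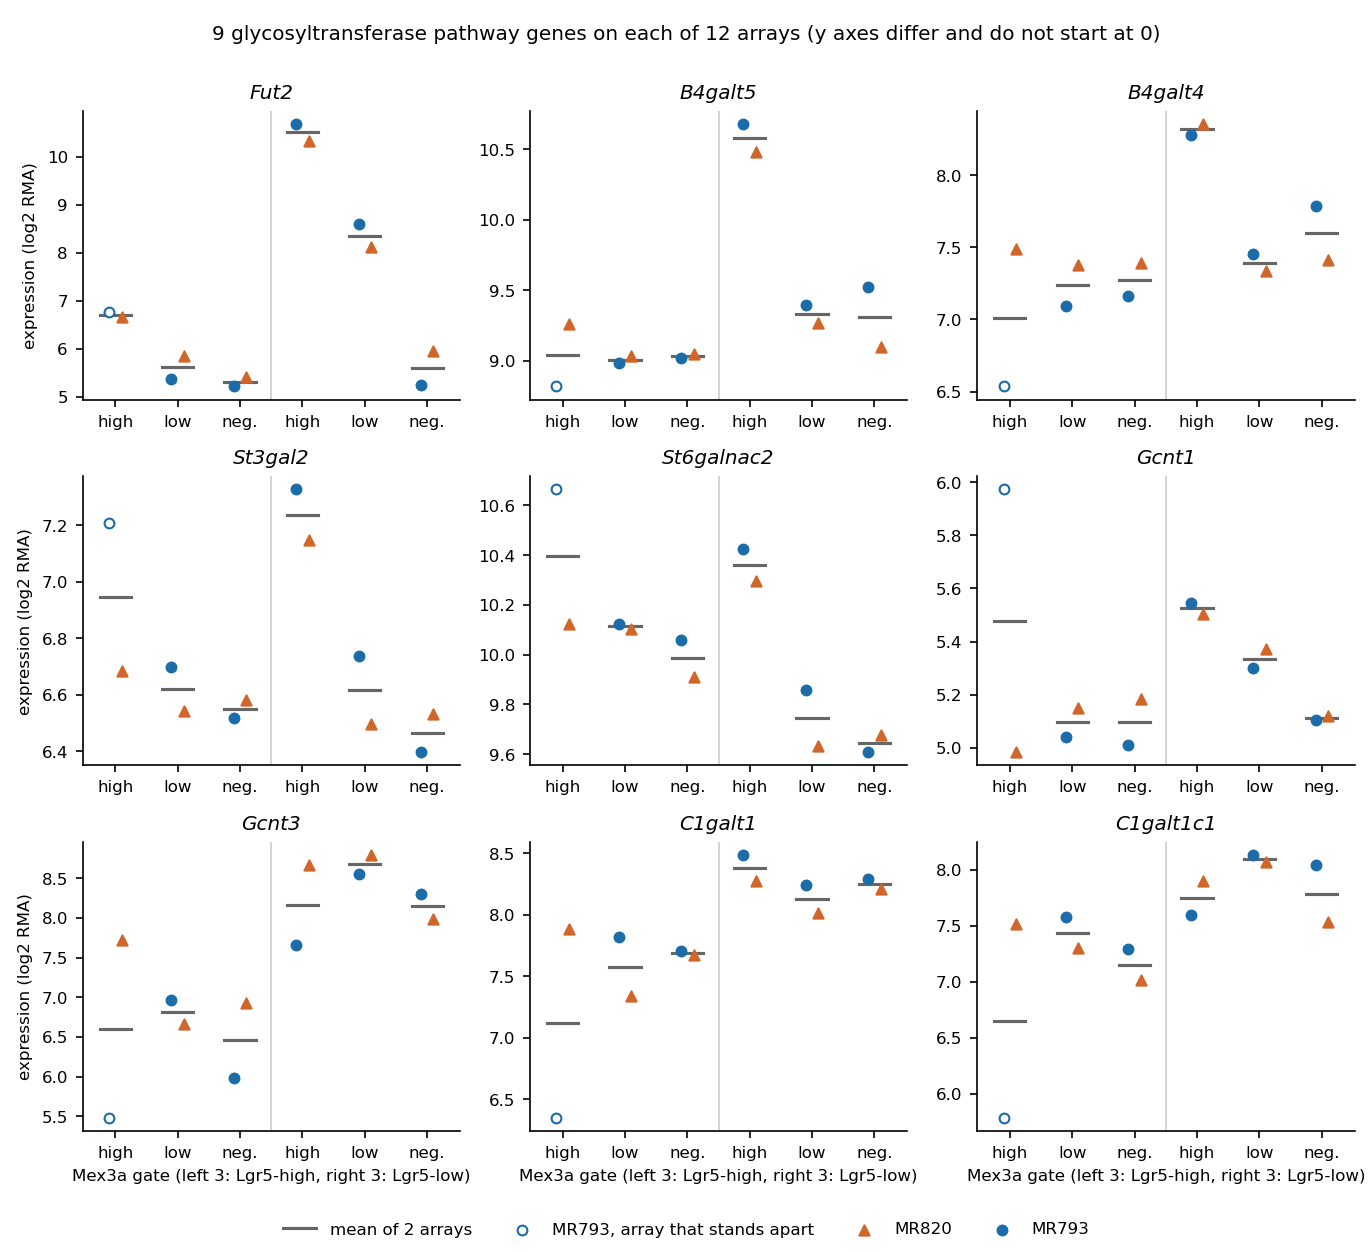
Expression (log2 RMA) of 9 of the 71 genes on each of the 12 arrays, by Mex3a gate, with the Lgr5-high populations left and the Lgr5-low populations right of the gray line. Circles are MR793, triangles MR820, bars the mean of both, and the open circle is the array that stood apart. Fut2 reads 10.69 and 10.34 in Mex3a-high Lgr5-low cells and steps down with the Mex3a gate, and B4galt5 is highest there too.

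Fut2 lies on chromosome 7 beside Fut1 and Sec1, relatives with which it shares its origin. In the order of the RefSeq gene table (GRCm38.p6), the measured neighbours among the nearest 6 genes on each side were Fgf21, Fut1, Izumo1, Rasip1, A030001D20Rik and Mamstr on one side and Sec1, Ntn5, Car11, Dbp and Sphk2 on the other. Their differences between Mex3a-high and Mex3a-negative cells of the Lgr5-low gate lay between -0.09 and 0.28, and none passed (adjusted p = 1.00 for each). Fut1, the other H antigen fucosyltransferase of the 71 genes, read 4.97 to 5.23 over the 11 arrays and differed by -0.03.

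The other fucosyltransferases had no such pattern. Of the 9, only Fut2 passed in the Mex3a-high against Mex3a-negative comparison of the Lgr5-low gate, and the median of the 9 was 0.08 there. Fut4, which adds the alpha-1,3-linked fucose of Lewis x, had the lowest difference of the group, at -0.26. It read 7.41 and 7.50 in Mex3a-high, 7.80 and 8.22 in Mex3a-low and 7.62 and 7.82 in Mex3a-negative Lgr5-low cells, so the Mex3a-high arrays were the lowest of the 6. Fut8 read 10.09 to 10.52 on the 11 arrays.

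Tuft and enteroendocrine marker genes moved with the same populations as Fut2. Tuft cells are chemosensory cells and enteroendocrine cells hormone-secreting ones. The mean of 8 measured tuft markers was 10.07 and 10.00 in Mex3a-high Lgr5-low, 8.24 and 7.38 in Mex3a-low Lgr5-low, 5.59 and 5.60 in Mex3a-negative Lgr5-low cells, and 7.55 and 7.09 in Mex3a-high Lgr5-high cells. It lay between 5.37 and 6.03 on the other 4 arrays, an order of populations like that of Fut2.

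The mean of 10 enteroendocrine markers was 10.63 and 10.42, 9.40 and 7.91, and 6.64 and 6.28 in the Mex3a-high, Mex3a-low and Mex3a-negative populations of the Lgr5-low gate. All 8 tuft, 8 of 10 enteroendocrine, 3 of 4 Paneth and 2 of 9 immune markers rose between Mex3a-high and Mex3a-negative Lgr5-low cells with 12 arrays, and none of the 8 goblet or 8 enterocyte markers passed. The 9 immune markers had a median difference of 0.02, and the largest were those of Lyz2 and Ptprc. Lyz2 read 13.06 and 12.96 against 9.97 and 11.71, and Ptprc 6.20 and 5.46 against 3.96 and 4.04. The part of the marked cell types in the Fut2 result was not tested. In such bulk samples, more cells of a type and more RNA per cell cannot be told apart.

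**Figure D3:**
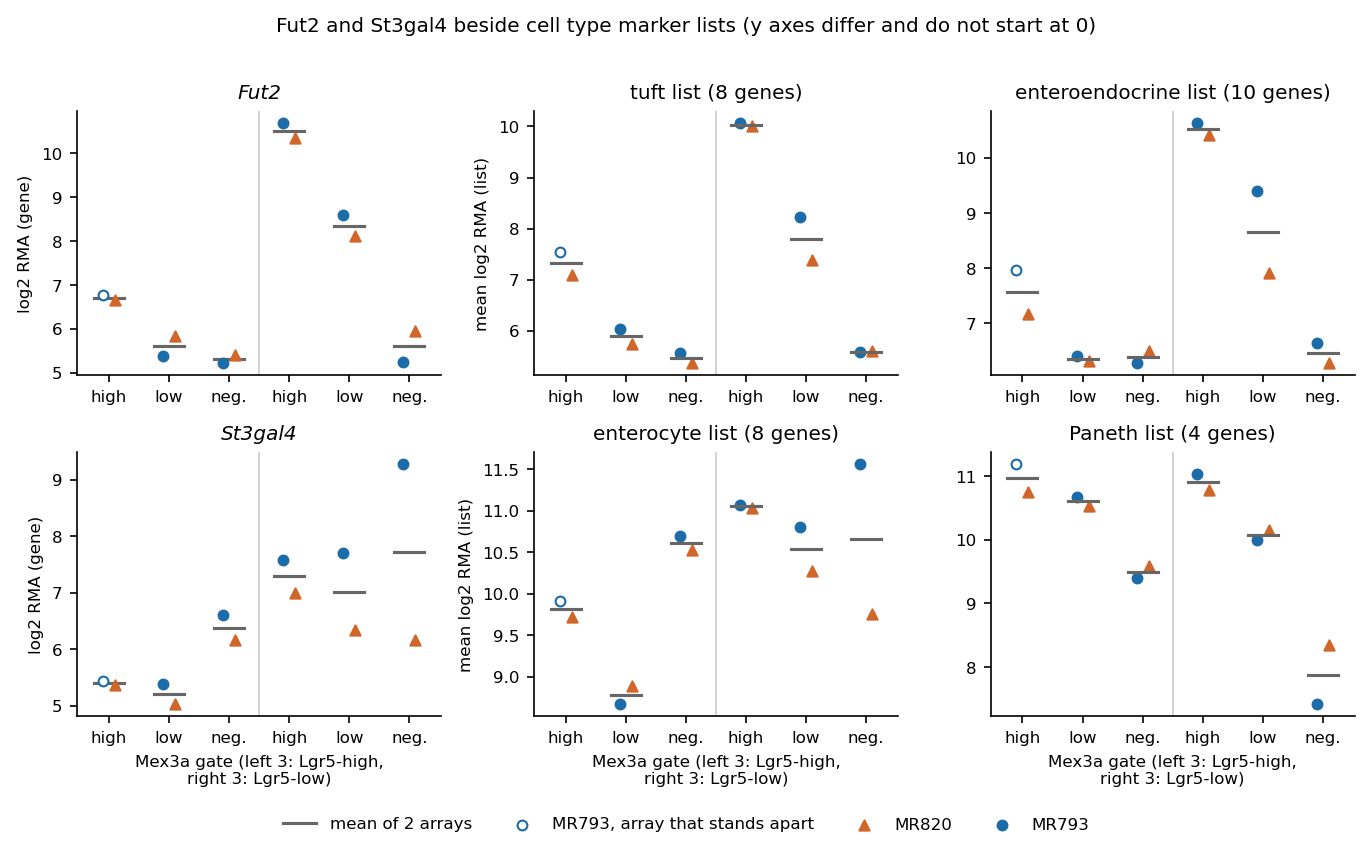
Fut2 and St3gal4 (left, log2 RMA) beside the mean log2 RMA of the measured tuft, enteroendocrine, enterocyte and Paneth markers on each of the 12 arrays, by Mex3a gate, with Lgr5-high populations left of the gray line. Circles are MR793, triangles MR820 and bars the mean of both. Fut2 and the tuft and enteroendocrine lists are highest in Mex3a-high Lgr5-low cells, and St3gal4 and the enterocyte list share a wide gap between the replicates of Mex3a-negative Lgr5-low cells, 9.28 and 6.17 for St3gal4 and 11.56 and 9.75 for the list.

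Among the 17 extension genes, B4galt5, a galactosyltransferase best known as a lactosylceramide synthase, was higher in Mex3a-high Lgr5-low cells. It read 10.68 and 10.48 there, 9.39 and 9.27 in Mex3a-low and 9.52 and 9.10 in Mex3a-negative Lgr5-low cells. In the Lgr5-high gate it read 8.82 and 9.26, 8.98 and 9.03, and 9.02 and 9.05. The 2 arrays of the Mex3a-high Lgr5-low population lay above the 10 others, which overlapped.

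B4galt5 rose by 1.27 ± 0.21 (SE) between Mex3a-high and Mex3a-negative Lgr5-low cells (adjusted p = 0.0140 with 12 arrays and 0.000941 with 11), and a second probe set gave 1.07. The call was lost without either Mex3a-high Lgr5-low array and without the Mex3a-negative Lgr5-low array of MR820, at adjusted p values of 0.0710 to 0.176. Against Mex3a-low cells it rose by 1.25 (adjusted p = 0.0295 with 12 arrays, 0.00213 with 11), and this call was lost when any of 8 of the 12 arrays was left out, at adjusted p values of 0.0783 to 0.331. It was kept without either Mex3a-high Lgr5-high or either Mex3a-negative Lgr5-low array.

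B4galt4, which adds galactose to GlcNAc and has 1 probe set, read 8.28 and 8.36 in Mex3a-high Lgr5-low cells. It read 7.46 and 7.33 in Mex3a-low and 7.79 and 7.41 in Mex3a-negative Lgr5-low cells, and 7.09 to 7.49 on the Lgr5-high arrays, apart from 6.53 on the array that stood apart. The Mex3a-high Lgr5-low arrays were again above the others. The differences were 0.72 against Mex3a-negative and 0.92 against Mex3a-low cells, and they passed with 11 arrays (adjusted p = 0.0365 and 0.0192) and not with 12 (0.659 and 0.488).

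B4galt6, the other lactosylceramide synthase, differed by 0.46 between Mex3a-high and Mex3a-negative Lgr5-low cells. It rose with 11 arrays and the replicate as a block (adjusted p = 0.00361) and did not pass with 12 or 11 arrays without that block. Its other probe sets gave smaller differences of 0.21, 0.26 and 0.02. The remaining extension genes ranged from -0.43 (B3gnt3) upwards, and the median of the 17 was 0.02. B3galt5 was flat on the probe set used, at 8.10 to 8.31 on the 11 arrays. A dimmer probe set read 7.74 and 7.93 in Mex3a-high, 7.14 and 7.26 in Mex3a-low and 6.74 and 7.19 in Mex3a-negative Lgr5-low cells. The other probe sets of B3galt5 were also highest in the Mex3a-high population of that gate, so its probe sets disagree.

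The 250 bases before the start of B4galt5 and B4galt4 are printed, with C1galt1, a core gene described below, beside them. B4galt5 and B4galt4 shared their highest population, Mex3a-high Lgr5-low cells, with Fut2, St3gal2, St6galnac2, Gcnt1 and other genes. The sequences come from RefSeq (GRCm38.p6), whose promoter table held 51 of the 71 genes and lacked Fut2, St3gal2 and St6galnac2. Each is given 5′ to 3′ on its gene's strand. Capitals mark exact matches, on either strand, to the GC box GGGCGG and the CCAAT box CCAAT. The regions are chr2:167349179-167349428 on the minus strand for B4galt5, chr16:38742009-38742258 on the plus strand for B4galt4 and chr6:7844974-7845223 on the plus strand for C1galt1.
B4galt5: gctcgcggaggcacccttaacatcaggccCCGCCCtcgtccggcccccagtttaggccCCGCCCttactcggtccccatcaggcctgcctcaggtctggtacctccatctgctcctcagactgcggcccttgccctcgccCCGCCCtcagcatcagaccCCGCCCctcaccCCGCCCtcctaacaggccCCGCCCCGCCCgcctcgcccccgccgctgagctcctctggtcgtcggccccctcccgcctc
B4galt4: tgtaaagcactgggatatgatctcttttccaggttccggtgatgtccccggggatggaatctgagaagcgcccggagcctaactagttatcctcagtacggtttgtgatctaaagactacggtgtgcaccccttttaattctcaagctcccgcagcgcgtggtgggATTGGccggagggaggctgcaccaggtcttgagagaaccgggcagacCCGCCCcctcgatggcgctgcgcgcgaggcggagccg
C1galt1: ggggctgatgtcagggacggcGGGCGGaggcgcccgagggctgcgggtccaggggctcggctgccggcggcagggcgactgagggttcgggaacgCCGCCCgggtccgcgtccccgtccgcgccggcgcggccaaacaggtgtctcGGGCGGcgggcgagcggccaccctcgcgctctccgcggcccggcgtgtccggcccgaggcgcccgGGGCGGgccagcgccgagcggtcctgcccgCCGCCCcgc
B4galt5 held 7 GC box matches, of which 2 overlap by a base, B4galt4 held 1 GC box and 1 CCAAT box match, and C1galt1 held 5 GC box matches. The G and C content was 73.2%, 59.2% and 82.8%, against a median of 52.4% over the 32851 promoters of the table. Of those, 32.7% held the GC box and 33.8% the CCAAT box. The octamer ATGCAAAT, the E-box CAGCTG and the TCF/LEF motif CTTTGAT, held by 1.6%, 13% and 3.21% of all promoters, had no exact match in these 3 windows.

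Sialyltransferases cap chains with negatively charged sialic acid. Of the 6 alpha-3 enzymes, St3gal2, which caps galactose on core 1 chains and on gangliosides, read 7.33 and 7.15 in Mex3a-high Lgr5-low cells against 6.40 to 6.74 on the other 4 Lgr5-low arrays. The Mex3a-high population did not overlap the others of that gate. It was 0.77 higher than in Mex3a-negative and 0.62 higher than in Mex3a-low cells, which passed with 11 arrays (adjusted p = 0.00864 and 0.0429) and not with 12 (0.176 and 0.573). Its other 2 probe sets differed by 0.85 and 0.25 in the first comparison.

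Of the 8 alpha-6 enzymes, St6galnac2, which adds sialic acid to the first GalNAc, read 10.43 and 10.29 in Mex3a-high, 9.86 and 9.63 in Mex3a-low and 9.61 and 9.68 in Mex3a-negative Lgr5-low cells. In the Lgr5-high gate it read 10.66 (the array that stood apart) and 10.12, 10.12 and 10.10, and 10.06 and 9.91. Within Lgr5-low cells the differences of 0.72 and 0.61 passed with 11 arrays (adjusted p = 0.00519 and 0.0201) and not with 12 (0.182 and 0.488). Its second probe set went the other way, by -0.14 and -0.33, so the probe sets of St6galnac2 disagree. St6galnac6 had a slightly larger difference, 0.78, but its Mex3a-high Lgr5-low arrays were far apart, at 7.00 and 6.30, and it did not pass with 12 or 11 arrays. With 11 arrays and the replicate as a block it passed (adjusted p = 0.0210).

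The 5 alpha-8 enzymes were dim, none exceeding 5.52 on the 11 arrays, and none passed in any of the 9 comparisons with 12 or 11 arrays. The 3 B4galnt genes did not pass in the fits of 12 and 11 arrays without a block either. B4galnt1 and B4galnt2 were bright and almost flat, from 12.23 to 12.44 and from 11.78 to 12.18 over the 11 arrays. B4galnt2 makes the terminal GalNAc of the Sda antigen of the gut.

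For the Lgr5 comparison, the difference of Lgr5-high minus Lgr5-low was averaged across all 3 gates of Mex3a, and 4 of the 8 genes that fell with 11 arrays were core and branching genes. With 12 arrays 2 of the 71 genes fell in that comparison, Fut2 and B4galt5, and none of the 7 core genes did, where 1.13% of all genes fell. With 11 arrays 8 of the 71 fell, where 3.3% of all genes did, and the core genes among them were Gcnt3, C1galt1, C1galt1c1 and Gcnt1. The median of the 7 core genes was then -0.49, against -0.03 over the 71 and 0.01 over all genes. None of the 71 rose with 12 or 11 arrays without a block, where 0.252% and 1.81% of all genes did.

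Gcnt3 makes core 2 and core 4 branches in mucus-secreting tissues. It read 7.66 and 8.67, 8.56 and 8.79, and 8.31 and 7.99 in the Mex3a-high, Mex3a-low and Mex3a-negative Lgr5-low populations. In the Lgr5-high gate it read 5.48 (the array that stood apart) and 7.72, 6.96 and 6.67, and 5.98 and 6.93. The lowest Lgr5-low array, at 7.66, lay below the highest Lgr5-high array, at 7.72, and apart from that pair the gates did not overlap.

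Gcnt3 was lower in Lgr5-high cells by 1.33 ± 0.22 (SE) on the log2 scale with 11 arrays, a difference of -1.33 (adjusted p = 0.0119). With 12 arrays the difference was -1.71 (adjusted p = 0.0646; with a replicate block 0.0370). A second, dimmer probe set gave -0.55 with 11 arrays. Within Mex3a-negative cells alone the difference was -1.69, which did not pass with 12 (adjusted p = 1.00) or 11 arrays (0.175) and passed with 11 arrays and the replicate as a block (0.0208).

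C1galt1 is the core 1 synthase, which adds galactose to the first GalNAc, and C1galt1c1 the chaperone it needs to fold. C1galt1 read 8.49 and 8.27, 8.25 and 8.01, and 8.29 and 8.21 in the Mex3a-high, Mex3a-low and Mex3a-negative Lgr5-low populations, and 7.34 to 7.88 on the 5 Lgr5-high arrays other than the one that stood apart, which read 6.35. The gates did not overlap. The difference was -0.54 with 11 arrays (adjusted p = 0.0225) and -0.79 with 12 (0.203), and its other 2 probe sets gave -0.18 and -0.42 with 11.

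C1galt1c1 read 7.53 to 8.13 on the Lgr5-low arrays and 7.01 to 7.57 on those 5 Lgr5-high arrays, so the gates overlapped slightly. Its difference was -0.51 with 11 arrays (adjusted p = 0.0472) and -0.80 with 12 (0.266). Enzyme and chaperone thus differed by similar amounts on the log2 scale.

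Gcnt1, the core 2 branching enzyme of many cell types, differed by -0.27 (adjusted p = 0.0251) with 11 arrays and by -0.10 (0.723) with 12. It was dim, at 4.98 to 5.55 on the 11 arrays, and highest in Mex3a-high Lgr5-low cells at 5.55 and 5.51, where it was 0.41 above Mex3a-negative cells (adjusted p = 0.0263 with 11 arrays, 1.00 with 12). A second probe set gave 0.91 there. B3gnt6, the core 3 synthase, did not pass, and read 4.74 to 5.04 on the 11 arrays.

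Of the genes outside the core group, Fut2 fell by 2.28 between Lgr5-low and Lgr5-high cells (adjusted p = 0.000663 with 12 arrays, 0.000369 with 11). B4galt5 differed by -0.71 with 12 (0.0256) and -0.64 with 11 arrays (0.00564). The B4galt5 call with 12 arrays was lost when any of 9 of the 12 arrays was left out, at adjusted p values of 0.0647 to 0.108. It was kept without either Mex3a-high Lgr5-high array and without the Mex3a-negative Lgr5-low array of MR820.

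B4galt4 (-0.44, adjusted p = 0.0416) and Galntl6 (-0.29, 0.0257) fell with 11 arrays and not with 12 (0.184 and 0.0597). Galntl6 was dim, and its second probe set gave -0.07. In Mex3a-negative cells the Fut2 levels of the 2 Lgr5 gates overlapped, at 5.22 and 5.41 against 5.25 and 5.96.

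The Lgr5 comparison is largely confounded with the array strip: 1 strip held Lgr5-high arrays only, 1 Lgr5-low arrays only, and 1 held both. With the strip as a block none of the 71 genes passed, the difference of Fut2 being -1.97 (adjusted p = 0.289). On the strip that held both gates, the MR820 Mex3a-high arrays gave Lgr5-high minus Lgr5-low differences of -3.68 for Fut2, -1.22 for B4galt5, -0.95 for Gcnt3, -0.87 for B4galt4, -0.52 for Gcnt1, -0.39 for C1galt1, -0.39 for C1galt1c1 and -0.18 for Galntl6. This pair also enters the fit that called the 8 genes, and it holds the Mex3a-high Lgr5-low population, where Fut2, B4galt5, B4galt4 and Gcnt1 were highest, so it is no separate check. The part of the strip in these results was not tested.

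**Figure D4:**
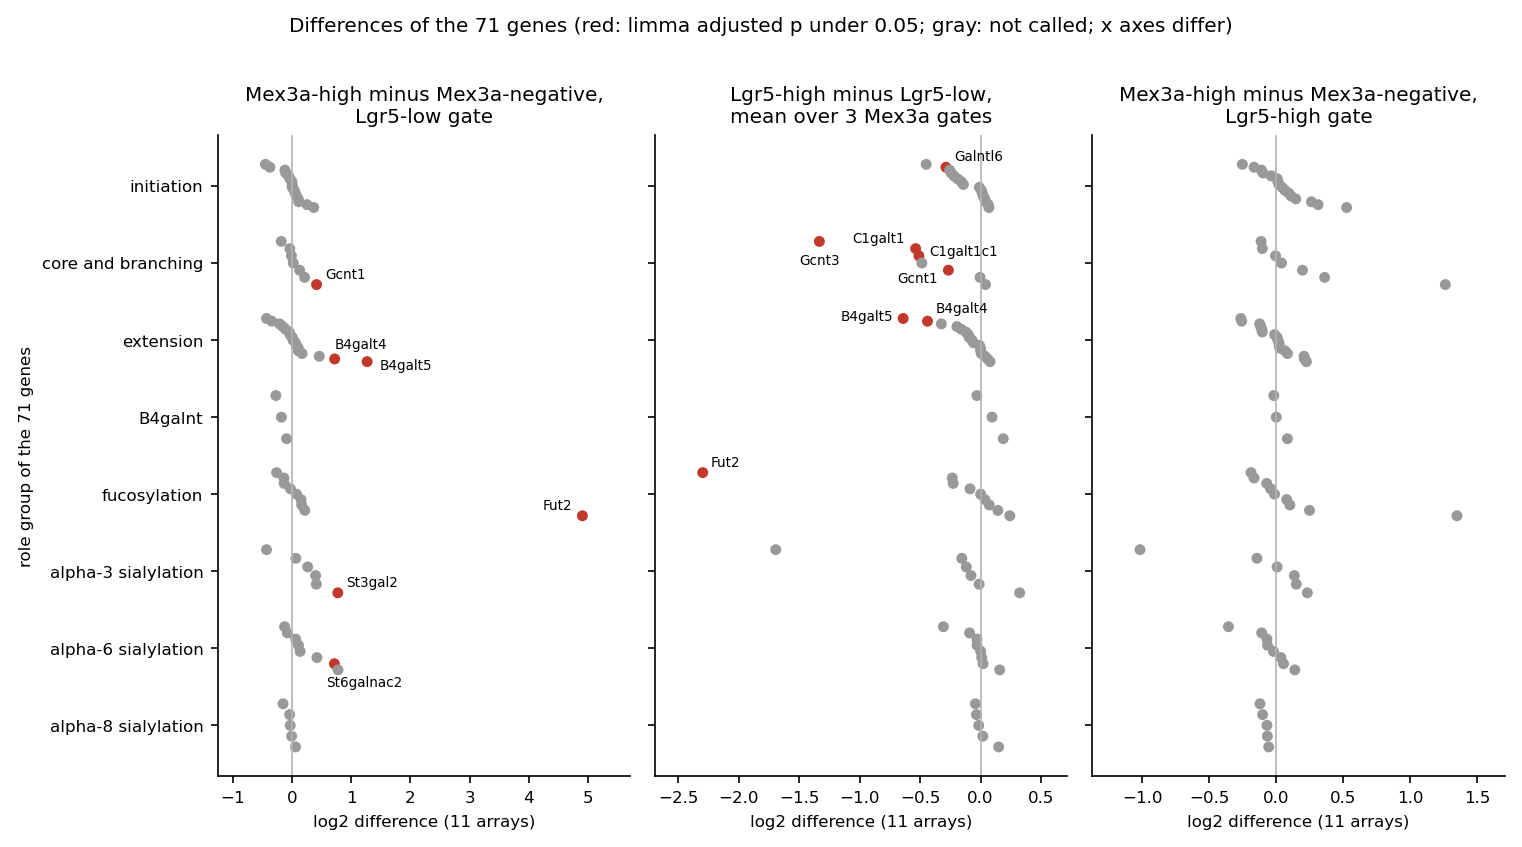
Differences (log2, 11 arrays) of the 71 genes by role group between Mex3a-high and Mex3a-negative cells of the Lgr5-low gate (left), between Lgr5-high and Lgr5-low cells (middle) and between the same Mex3a gates of Lgr5-high cells (right), 1 point per gene, red where the limma adjusted p was under 0.05. Fut2 lies at 4.91 in the left and at -2.30 in the middle panel, 4 of the 7 core genes are red in the middle panel, and no gene is red in the right panel.

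Cell type markers moved with the Lgr5 gates as well. With 12 arrays 6 of 8 tuft, 6 of 10 enteroendocrine, 3 of 8 goblet and 1 of 8 enterocyte markers fell in Lgr5-high cells, and 6 of 10 crypt stem cell markers rose. With 11 arrays 6 of 8 goblet markers fell and 9 of 10 stem cell markers rose. Lgr5, the gene of the gates, is one of the 10 and rose in both fits, and of the 9 others 5 rose with 12 arrays and 8 with 11. The mean of the goblet list was 8.70 to 10.05 on the Lgr5-high and 10.29 to 10.97 on the Lgr5-low arrays. Their part in the core gene result was not tested.

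The 16 initiating Galnt genes, whose enzymes choose which residues carry a glycan, varied little. In the Mex3a-high against Mex3a-negative comparison of the Lgr5-low gate they ranged from -0.45 (Galnt6) to 0.37 (Galnt12), with a median of 0.00 and no call. Galnt7 read 9.56 to 10.00 over the 11 arrays. Galntl6 was the only one of the 16 called in any comparison with 12 or 11 arrays without a block.

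Galnt12 read 6.75 and 7.23 in Mex3a-high, 7.06 and 7.55 in Mex3a-low and 6.54 and 6.71 in Mex3a-negative Lgr5-low cells. It was higher in MR820 than in MR793 in each of the 6 populations. Galnt6 differed by -0.57 between the Lgr5 gates of Mex3a-negative cells, which did not pass with 12 (adjusted p = 1.00) or 11 arrays (0.415).

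Between the Mex3a gates of Lgr5-high cells no member passed. Over all genes 0% passed in each of the 3 comparisons with 12 arrays. With 11 arrays 0.0175% passed for Mex3a-high against Mex3a-negative, 0% for Mex3a-low against Mex3a-negative and 0.00585% for Mex3a-high against Mex3a-low. At an unadjusted p under 0.05 in limma, 1, 0 and 2 of the 71 genes and 661, 79 and 621 of all genes lay with 12 arrays, and 3, 2 and 2 of the 71 and 538, 554 and 789 of all genes with 11. Fut2 had the largest positive difference in both comparisons of Mex3a-high cells, 1.40 and 1.10 with 12 arrays.

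Galnt4, which adds GalNAc to peptides that already carry some, differed by -0.74 from Mex3a-negative and by -0.89 from Mex3a-low cells with 12 arrays, and by 0.01 and -0.15 with 11. It read 7.92 on the array that stood apart and 9.40 to 9.71 on the other 11. Galnt18 (0.50), B4galt6 (-0.68) and Fut8 (-0.48), the other genes with the smallest p values there, likewise came to 0.04, -0.15 and -0.12 with 11 arrays. All 4 were thus close to or nearer 0 without that array. St6galnac2 was 0.41 above Mex3a-negative cells with 12 arrays and 0.14 with 11.

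Between Mex3a-low and Mex3a-negative Lgr5-high cells, the smallest p values were those of St3gal1 (0.33), St3gal4 (-1.17), B3galt2 (-0.13) and B3gnt8 (-0.24). In the comparison of the Lgr5 gates within Mex3a-negative cells, 0% of all genes passed with 12 arrays and 0.0585% with 11, and none of the 71 did. At an unadjusted p under 0.05 in limma lay 2 of the 71 and 371 of all genes with 12 arrays, and 15 of the 71 and 1748 of all genes with 11. Gcnt3 (-1.69), Gcnt2 (-0.67), Galnt6 (-0.57) and B3galt2 (0.16) had the smallest p values.

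St3gal4, an alpha-3 sialyltransferase that caps type 2 chains, ranged widely without passing a test in the fits of 12 and 11 arrays. It read 5.43 and 5.37 in Mex3a-high, 5.39 and 5.03 in Mex3a-low and 6.60 and 6.17 in Mex3a-negative Lgr5-high cells. In the Lgr5-low gate it read 7.58 and 7.00, 7.71 and 6.33, and 9.28 and 6.17. The replicates of Mex3a-negative Lgr5-low cells were thus 3.11 apart, a gap that ranked 6 among the 17097 genes in that population. The difference between the Lgr5 gates was -1.69 with 11 arrays, which did not pass, and it passed with the replicate as a block, at -1.50 (adjusted p = 0.0140).

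Enterocyte markers had a gap in the same pair of arrays. The mean of 8 such markers, genes of the absorptive cells, was 11.56 in the MR793 and 9.75 in the MR820 array, and Apoa4 (2.85), Fabp1 (2.77), Alpi (2.05) and Krt20 (1.79) were higher in MR793. Gcnt2, which makes I branches, and B3gnt7 were 1.04 and 0.83 higher there. The part of these cells in the St3gal4 values was not tested.

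The other genes of the pathway, taken from lists of mucins, sugar donor supply, sulfation, other capping enzymes and glycan-degrading enzymes, held few calls. With 12 arrays none of the 9 mucins, 21 donor genes, 10 sulfation genes, 5 other capping enzymes or 4 sialidases and fucosidases passed between Mex3a-high and Mex3a-negative Lgr5-low cells or between the Lgr5 gates. With 11 arrays 4 of the 21 donor genes fell in Lgr5-high cells, where 3.3% of all genes did. They were Gfpt1 (-0.55, adjusted p = 0.0135) and Uap1 (-0.37, 0.0251), which work towards UDP-GlcNAc, and Gmds (-0.28, 0.0450) and Slc35c1 (-0.42, 0.0181), which make and transport GDP-fucose, the donor that FUT2 uses.

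The median of the 21 donor genes was -0.17 in that comparison, against 0.01 over all genes, and 17 of the 21 differences were negative. Gfpt1 read 9.44 to 9.97 on the Lgr5-low and 8.92 to 9.33 on the 5 Lgr5-high arrays, without overlap. Slc35c1 read 9.90 to 10.28 and 9.53 to 9.73, also without overlap. The membrane mucin Muc3 fell too, by 0.57 (adjusted p = 0.0418), the only one of the 9 mucins to pass. Of the 14 mucins listed 9 were measured, and Muc2, which is also on the goblet list, was not among them. On the strip that held both gates, the MR820 Mex3a-high pair gave -0.37 for Gfpt1, -0.18 for Uap1, -0.06 for Gmds, -0.18 for Slc35c1 and -0.47 for Muc3, and the part of the strip was not tested.

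Between Mex3a-high and Mex3a-negative Lgr5-low cells with 11 arrays, Ugp2, which makes UDP-glucose, fell by 0.52 (adjusted p = 0.0392), and Gbgt1, the Forssman synthase, by 0.31 (0.0469). Of all 17097 genes 211 fell there. Gbgt1 was dim, at 4.84 to 5.26 on the 11 arrays. No donor gene rose in that comparison, where 4.06% of all genes did. The donor genes differed by a median of -0.10 there.

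Pairing by replicate added calls, among the 71 genes and over all genes. With 11 arrays and the replicate as a block, 9 of the 71 genes passed between Mex3a-high and Mex3a-negative Lgr5-low cells, where 11.9% of all genes did. Between Mex3a-high and Mex3a-low Lgr5-low cells 7 passed, against 5.23% of all genes, and between Mex3a-low and Mex3a-negative Lgr5-low cells 1, Fut2, against 0.333%. Between the Lgr5 gates 17 passed, against 11.4% of all genes, and within Mex3a-negative cells 1, Gcnt3, against 2.11%. In the difference between the gates 2 passed, Fut2 and B4galt5, against 1.81%. B4galnt1 (-0.18, adjusted p = 0.0355) and, against Mex3a-low cells, Fut4 (-0.55, 0.0312) were the members that fell in the Mex3a comparisons of that fit. The second probe set of Fut4 went the other way, by 0.18, and that of B4galnt1 gave -0.50. Between the Lgr5 gates B4galnt2 (0.17, 0.00826) and St3gal3 (0.36, 0.0280) were the members that rose, and Galnt6, Galnt7, Galnt10, Galnt12, B3gnt3 and Fut8 fell by 0.22 to 0.40.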

How the data were processed

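The authors deposited RMA values on the log2 scale for each probe set, as the submitters' processing notes say; the RMA version was not given in the sources used here. They were used without further processing, and the number of arrays limits their precision. Of 45141 probe sets, 28898 had 1 gene and 551 several in the probe table, 28689 matched the mouse gene table by identifier, and 0 names changed. Each gene was read from its brightest probe set (mean of 12 arrays) that lists no other gene; 44 of the 71 genes had several.

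Each gene was fitted as 6 population means with limma 3.58.1 in R 4.3.3 (eBayes with trend), with p-values adjusted by Benjamini-Hochberg over all 17097 genes and a call at 0.05; SE is limma's moderated standard error. Alternatives were a replicate or strip block, 2 normalisations, the mean of all probe sets, dim genes left out, no trend, only the groups compared, and each array left out in turn; the replicate block with MR793 left out of Mex3a-high Lgr5-high cells was added after seeing the data. The replicate of the labels is taken to pair the populations: replicate differences of 14 of 15 pairs of populations correlated over 0.1 (-0.115 to 0.566), and of all 10 pairs without that population at 0.374 to 0.566.

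Genes named are those called with 12 or 11 arrays and the 4 with the smallest p in each comparison. The brightest gene of each role group is named too, and pathway genes are those called. B4galt6 (Mex3a gates of Lgr5-low cells), St6galnac6, Fut4, Fut1, B3gnt6, B4galnt2 and B3galt5 were added after their values were seen. So were the genes called only with the block. The genes, the marker and pathway lists and the tests were chosen with earlier results of these data known.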

Additional observations from a re-analysis of the deposited data

Results flagged for a closer look

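The difference of Fut2 between Mex3a-high and Mex3a-negative cells was larger in the Lgr5-low than in the Lgr5-high gate, and the test of that difference passed: 3.51 on the log2 scale (limma, adjusted p = 0.00815), 3.90 in MR793 and 3.12 in MR820.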

How the results depend on the processing

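The counts are of the 71 genes called with limma. Leaving out each array in turn gave 1 to 6 for Mex3a-high against Mex3a-negative, 0 to 1 for Mex3a-low against Mex3a-negative and 0 to 5 for Mex3a-high against Mex3a-low, all in Lgr5-low cells. It gave 0 to 40 and 0 to 46 for Mex3a-high against Mex3a-negative and against Mex3a-low in Lgr5-high cells, 1 to 39 between the Lgr5 gates and 0 to 36 for the difference between the gates. The highest values, 40, 46, 39 and 36, arose without the MR820 array of Mex3a-high Lgr5-high cells, which leaves the array that stood apart as the only one of its population. In these fits 62.3%, 60.7%, 54.5% and 48.6% of all genes were called, against 56.3%, 64.8%, 54.9% and 50.7% of the 71. The strip block gave 0 between the Lgr5 gates, only the groups compared gave 0 for Mex3a-low against Mex3a-negative Lgr5-low cells, and for Mex3a-high against Mex3a-low Lgr5-low cells the common median, the mean of all probe sets and dim genes left out each gave 1. With the replicate block and that MR793 array left out, the counts that differed were 9, 7, 17, 1 (Gcnt3, between the Lgr5 gates of Mex3a-negative cells) and 2, as above. The replicate block with 12 arrays added only Gcnt3, for 3 calls between the Lgr5 gates, and changed no other call.

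Values of named genes turned sign in 3 cases: Galnt4 (Mex3a-high against Mex3a-negative, Lgr5-high) at 0.0130 without the MR793 array that stood apart and 0.0256 there with the replicate block (leaving out each array in turn gave -1.49 to 0.0130), and Gcnt1 (between the Lgr5 gates) at 0.0638 without the MR820 array of that population (-0.27 to 0.0638). Of the other 890 comparisons of a named gene with an alternative, 796 kept the call or its absence, 57 gained and 37 lost one. Centring on a common median moved the median of all genes to -0.11 in the Mex3a-high against Mex3a-negative comparison of Lgr5-low cells and in the difference between the gates, against -0.01 and -0.06. Small differences of dim probe sets cannot be resolved from their background signal.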
